A study of Homo sapiens with 16 samples.

Results

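Ribosome biogenesis and nucleolar protein genes encode the proteins that transcribe ribosomal DNA, process and modify its RNA and assemble the ribosomal subunits in the nucleolus. The genes described here are a list of 50 names, chosen for their role in the pathway and with earlier results of these data known. Of these names, 49 had a row among the 28207 human genes of the deposited tables, and 47 had enough reads to be tested among 4632 genes. The name without a row, MKI67IP, is an older symbol of NIFK, which is listed too. The 47 tested genes comprised 18 of large subunit (60S) assembly, 15 of the small subunit (40S) processome and maturation, 7 that encode core proteins of small nucleolar ribonucleoproteins (snoRNPs) or abundant nucleolar proteins, and 7 of RNA polymerase I transcription.

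A ribosome begins as a long precursor RNA that RNA polymerase I makes from ribosomal DNA. Box C/D and box H/ACA snoRNPs place methyl and pseudouridine marks on that precursor, the small subunit processome folds and cuts the 40S part, and helicases, GTPases and scaffold complexes build the 60S part. Many genes of this programme are known targets of the transcription factor MYC, which binds the E-box CACGTG, and their products are abundant in proliferating tumour cells.

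U2OS cells, an established line derived from a human osteosarcoma, gave the total RNA of this series, in a study whose title names interactions between MYC and FACT (a histone chaperone) and Z-DNA, a left-handed form of DNA. The 16 libraries fall into 8 genotypes of 2 replicates each: zdna4_CL, zdna4_CC, zdna3_CL, zdna3_CC, zdna2_CL, zdna2_CC, zdna1_CL and zdna1_CC. What the 4 numbers and the arms CL and CC stand for is not spelled out in the labels, and no arm is called a control. The labels give no clone, culture or day, so that the spread between replicates may be technical and p-values measure only that spread.

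Depth was low and uneven, between 39335 and 310187 reads on human genes per library, of which 367 to 2861 fell on the listed genes. One read was worth 3.22 to 25.4 CPM, the unit in which reads on human genes are scaled to the same total in each library. That plain scale was also used for the olfactory receptor reads below. CPM values of all other genes and sums were further scaled by trimmed mean of M values (TMM). The zdna4 CC libraries were the shallowest, at 39335 and 40886 reads, and stood apart in their reads on olfactory receptor genes, at 1499.9 and 1541 CPM against 63.6 to 420.3 CPM in the other libraries. Each number's annotation held 1 additional contig, whose reads per 1000 human-gene reads were lower in CL than in CC in every number: 14.2 and 12.9 in zdna4 CL against 217 and 159.7 in zdna4 CC, 262 and 275 in zdna3 CL against 7103 and 6952 in zdna3 CC, 1503 and 1573 in zdna2 CL against 1735 and 1802 in zdna2 CC, and 4.05 and 3.27 in zdna1 CL against 375 and 347 in zdna1 CC. The part of these reads in the results was not tested. A set of 9 mesenchymal markers, led by VIM and COL1A1, summed to between 2671 and 4428 CPM in all libraries although TWIST1 had no read in any, while sets for epithelial, blood, endothelial, muscle and nerve cells stayed between 0 and 134.9 CPM. In bulk RNA, fewer cells of a type and less RNA per cell cannot be told apart.

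Per base of all annotated exons of a gene, on the TPM scale (reads per base of exon, scaled to the same total in each library), NPM1 and NCL stood far above the rest. NPM1, which encodes the ribosome chaperone nucleophosmin, averaged 1111 TPM over the 16 libraries, and NCL, which encodes the RNA-binding protein nucleolin, averaged 718 TPM. FBL, the methyltransferase fibrillarin of box C/D snoRNPs, followed at 361 TPM. The 60S assembly protein EBNA1BP2, at 266 TPM, and the helicase DDX21, at 261 TPM, were next. The box C/D core proteins NOP56 and NOP58 averaged 184 and 126 TPM, and DKC1, the pseudouridine synthase of box H/ACA snoRNPs, averaged 96.2 TPM. The nucleolar GTPase GNL3 averaged 146 TPM, and BOP1 and PES1, both subunits of the PeBoW complex of 60S assembly, averaged 125 and 166 TPM. Genes of RNA polymerase I transcription lay lower: UBTF, the HMG-box factor of ribosomal DNA, averaged 82.9 TPM, the scaffold TCOF1 77.96 TPM, HEATR1 44.5 TPM and POLR1A, the largest subunit of the polymerase, 43.01 TPM. WDR12, the other PeBoW subunit, had the lowest average of the 47 tested genes, 16.6 TPM over 8066 annotated exon bases. In CPM it averaged 80.97, above BYSL at 69.1, so its last place depends on exon length. POLR1A, with 12480 annotated exon bases, averaged 325 CPM.

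Together the listed genes took 0.922% and 0.933% of human-gene reads in the zdna4 CL libraries and 0.933% and 1.07% in zdna4 CC, 1.28% and 1.26% in zdna3 CL and 1.29% and 1.36% in zdna3 CC, 1.43% and 1.43% in zdna2 CL and 1.42% and 1.33% in zdna2 CC, and 0.906% and 1.04% in zdna1 CL and 1.22% and 1.21% in zdna1 CC. The zdna3 and zdna2 libraries all lay above every zdna4 and zdna1 library, and within zdna1 both CL libraries lay below both CC libraries. The group mean of a tested gene was lowest in zdna4 CL for 19 of the 47 genes and in zdna1 CL for 11, and no gene was highest in either of these 2 groups. It was highest in zdna3 CC for 15 genes, in zdna3 CL for 13 and in zdna2 CL for 8. Such counts were not made over all tested genes, so they cannot be called particular to the listed genes. Depth also differed between the groups, and its part was not tested. NCL and NPM1 did not alone set the order of the read shares. The other listed genes summed to 6331 and 6564 CPM in zdna4 CL and 6634 and 7319.5 CPM in zdna1 CL. In the zdna3 and zdna2 libraries they summed to between 9114 and 10216 CPM.

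**Figure D1:**
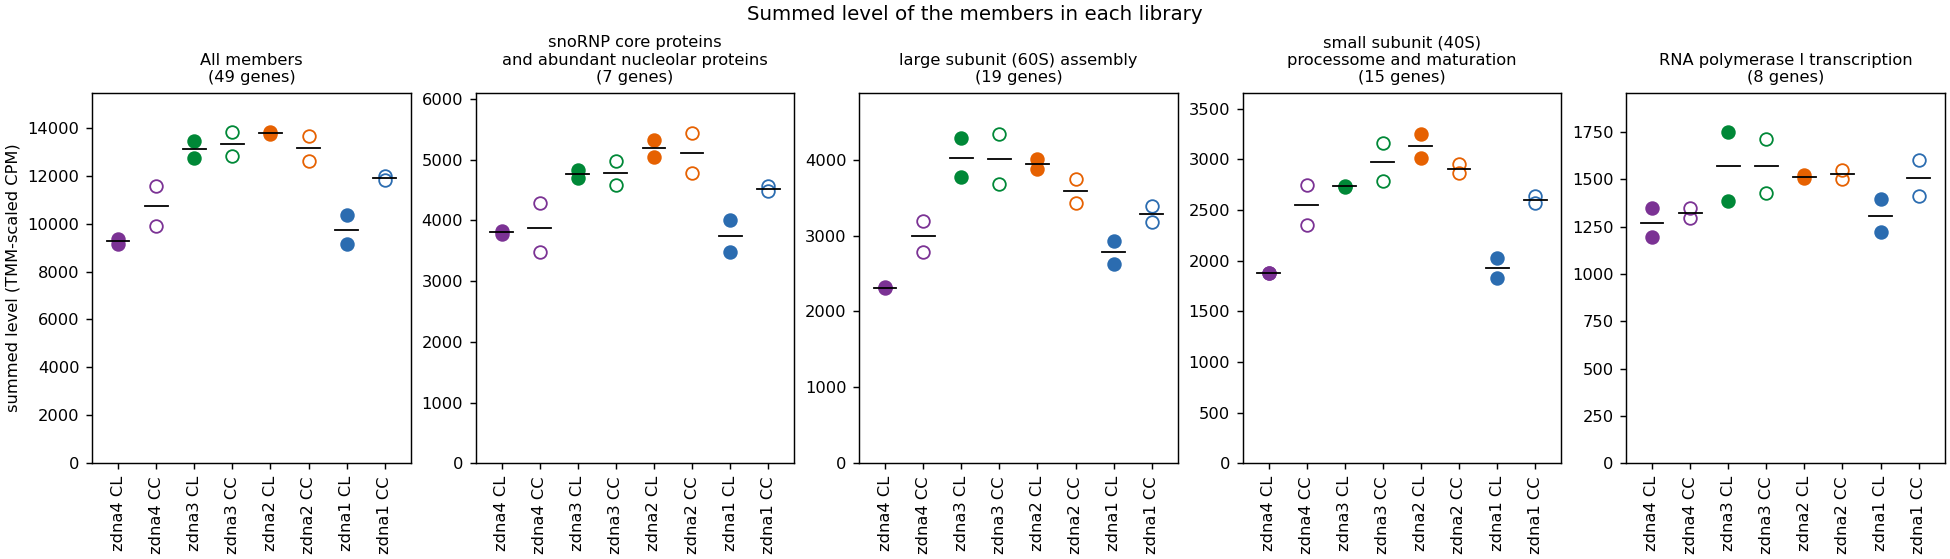
Summed level of the listed genes in each library, in CPM scaled by trimmed mean of M values (TMM), for all 49 genes with a row and by role. Points are libraries (filled CL, open CC) and bars the mean of 2; the zdna4 CL sums of all genes, 9157 and 9377 CPM, and the zdna1 CL sums, 9148 and 10355 CPM, lie below all zdna3 and zdna2 sums, the lowest of which is 12628 CPM.

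Genes were compared between groups with limma on log2(CPM + 10), so that a fold change understates the change of low genes, and a gene passed at a Benjamini-Hochberg adjusted p under 0.05 over all 4632 genes. In zdna4 CL against zdna2 CL, 17 of 47 listed genes passed and all 17 were lower in zdna4 CL, where 10.6% of all tested genes passed in either direction and 4.23% passed as lower. The median log2 change of the 47 genes was -0.54, against -0.00 for all tested genes, and 44 of the 47 changes were below 0. Both zdna4 CL libraries lay below both zdna2 CL libraries for 37 of the 47 genes, which held for 26% of all tested genes. Without one of these 4 libraries fewer listed genes passed: 3 with zdna4 CL replicate 1 left out, 5 with zdna4 CL replicate 2 left out and 6 with either zdna2 CL replicate left out, while the median stayed between -0.58 and -0.51 over all libraries left out in turn. Equal weights for all libraries left 4 calls, a count without the share of all tested genes beside it. DESeq2 called 7 listed genes and 2.78% of all tested genes, and edgeR 17 and 10.2%. The libraries also differed in depth: zdna4 CL had 310187 and 225177 reads, against 137628 and 168213 reads in zdna2 CL, and the part of depth was not tested.

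Genes of 60S assembly gave 8 of those 17 calls, among 18 tested. DDX21, a DEAD-box helicase of the nucleolus, had 544 and 455 CPM in zdna4 CL, against 928 and 1030.5 CPM in zdna2 CL. The libraries of the groups did not overlap, and the gene fell by 0.96 ± 0.12 on the log2 scale (SE; limma adjusted p 2.17e-08). PES1, which encodes pescadillo of the PeBoW complex, had 154 and 174 CPM in zdna4 CL, against 391 and 326 CPM in zdna2 CL, and fell by 1.08 ± 0.18 on the log2 scale (SE; limma adjusted p 1.2e-05). The other 6 were GNL2 (-0.96) and GNL3 (-0.76), GTPases, the helicase DDX18 (-0.78), the NOC-family proteins NOC2L (-0.86) and NOC3L (-1.35), and EBNA1BP2 (-0.64), all on the log2 scale. All 18 tested genes of this role had a change below 0. NOC3L, with the largest of the 8 falls, had 5 reads in zdna4 CL replicate 1 and 16 reads in replicate 2. Replicate 2 had 71.4 CPM, against 126 and 91.6 CPM in zdna2 CL. The size of the NOC3L fall therefore rests in part on the library with 5 reads.

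The small subunit processome gave 7 calls among 15 genes, and all 15 changes were below 0. RRP12, an export factor of the 40S subunit, had 106 and 103 CPM in zdna4 CL, against 279 and 258 CPM in zdna2 CL. It fell by 1.29 ± 0.21 on the log2 scale (SE; limma adjusted p 9.52e-06). WDR43, a subunit of the t-UTP complex that starts processome assembly, had 285 and 255 CPM in zdna4 CL, against 426 and 515 CPM in zdna2 CL, with no overlap, and fell by 0.78 ± 0.15 on the log2 scale (SE; limma adjusted p 0.00019). UTP20, a large scaffold of the processome, had 96.02 and 112 CPM in zdna4 CL, against 279 and 166 CPM in zdna2 CL, and fell by 0.99 ± 0.24 on the log2 scale (SE; limma adjusted p 0.00257). WDR3 of the UTP-B complex had 154 and 152 CPM in zdna4 CL, against 251 and 326 CPM in zdna2 CL, and fell by 0.87 ± 0.21 on the log2 scale (SE; limma adjusted p 0.00288). These 3 genes, like RRP12, were lower in both zdna4 CL libraries than in both zdna2 CL libraries. UTP25 (-1.15), WDR75 (-0.90) and TSR1 (-0.85) also fell.

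Among snoRNP and abundant nucleolar proteins, NCL and NPM1 passed. NCL had 1322 and 1353 CPM in zdna4 CL, against 2045 and 1906 CPM in zdna2 CL, and fell by 0.56 ± 0.09 on the log2 scale (SE; limma adjusted p 5.23e-06). NPM1 had 1504 and 1460.1 CPM in zdna4 CL, against 1913 and 1958 CPM in zdna2 CL, and fell by 0.38 ± 0.09 on the log2 scale (SE; limma adjusted p 0.00196). In both genes the groups were separate. The fitted changes were smaller in size than those of the 60S and 40S genes named above, which were picked because they passed. Over all 18 tested 60S genes the median change was -0.59, and over all 15 tested 40S genes -0.78. FBL, with 205 and 237 CPM in zdna4 CL, against 237 and 160.3 CPM in zdna2 CL, overlapped between the groups and did not pass (0.17).

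None of the 7 genes of RNA polymerase I transcription passed with limma in this comparison, and edgeR and DESeq2 also gave 0; 2 of the 7 had an unadjusted p under 0.05, as had 24.3% of all tested genes. Their median log2 change was -0.38. UBTF had 237 and 304 CPM in zdna4 CL, against 251 and 172 CPM in zdna2 CL and a change of 0.35, and POLR1A had 317 and 326 CPM in zdna4 CL, against 433 and 343 CPM in zdna2 CL and a change of -0.26. The 7 genes are POLR1A, POLR1B, UBTF, TCOF1, HEATR1, MYBBP1A and LYAR. HEATR1, the UTP10 homologue, also links to pre-rRNA processing, and MYBBP1A and LYAR are described only as nucleolar proteins. Membership of the role is therefore a choice. Whether this role differed from the others was not tested.

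**Figure D2:**
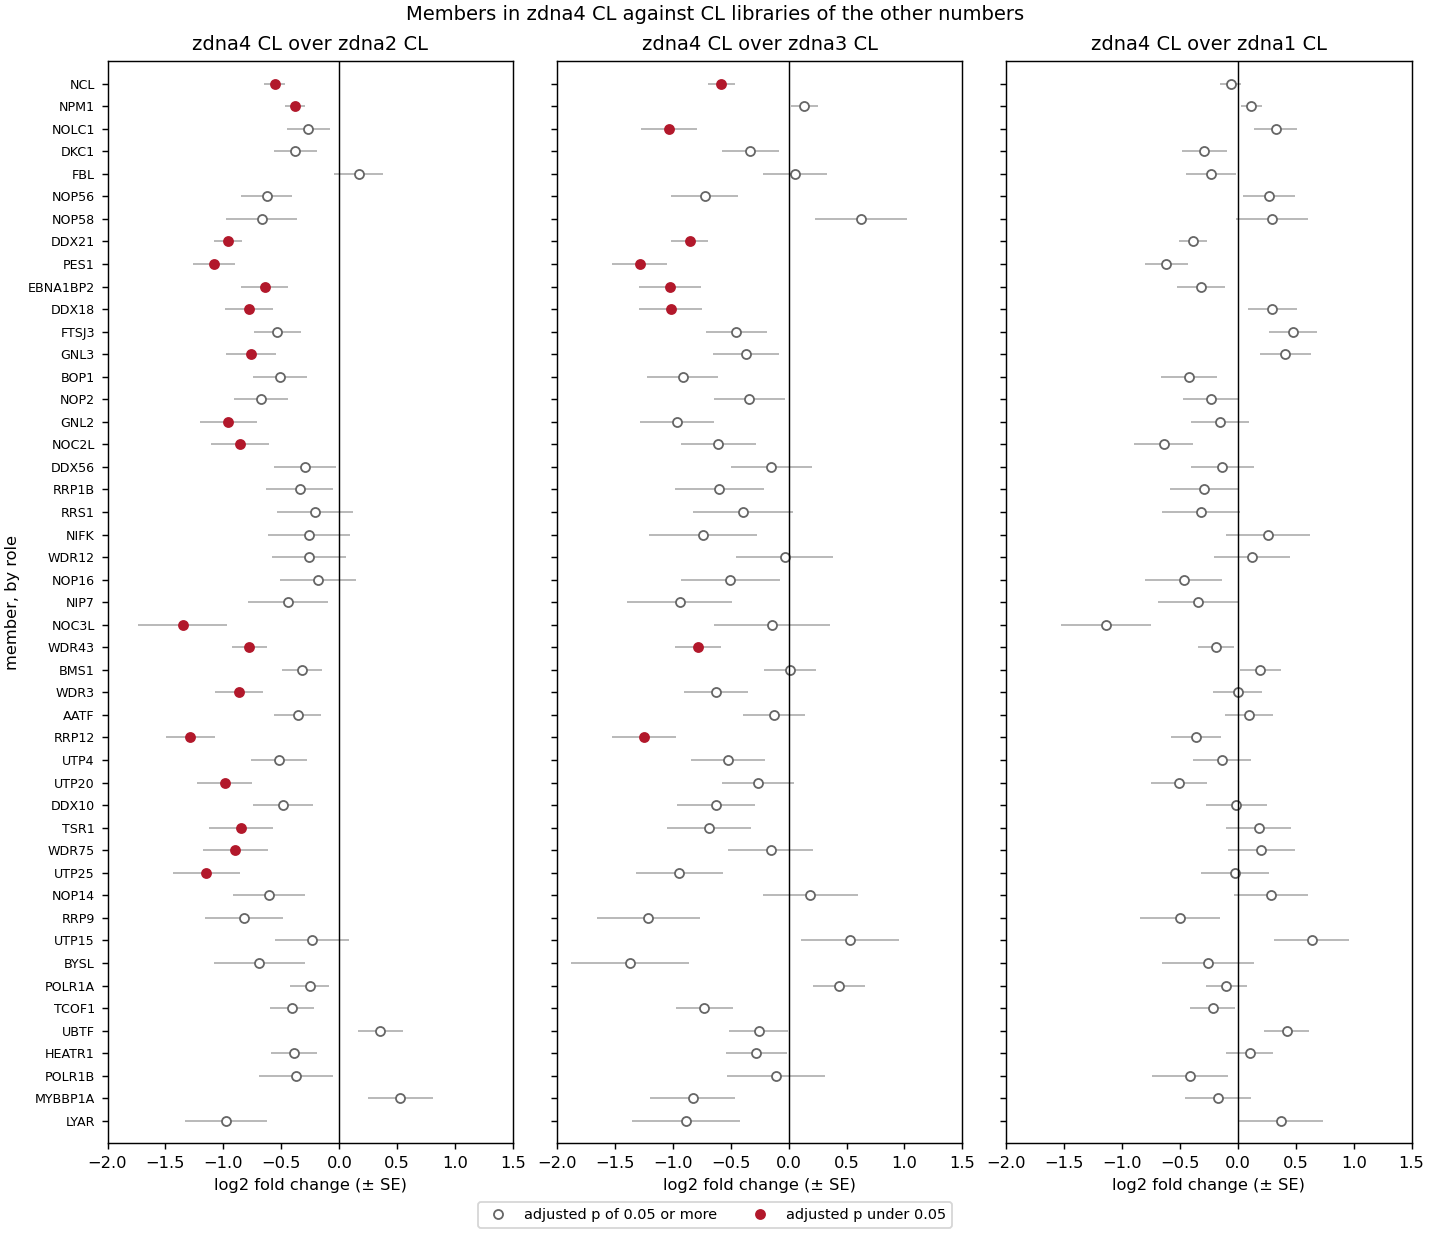
Log2 fold change (± SE) of each of the 47 tested genes in zdna4 CL over zdna2 CL, zdna3 CL and zdna1 CL, in that order from the left, by role from snoRNP and abundant proteins at the top to RNA polymerase I transcription at the bottom. Filled red points passed an adjusted p under 0.05, 17, 8 and 0 genes from left to right; all 3 panels share the zdna4 CL libraries.

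Against zdna3 CL, the same zdna4 CL libraries gave 8 listed genes that passed, again all lower in zdna4 CL, where 6.71% of all tested genes passed and 3.35% as lower. The median log2 change was -0.58, against 0.01 for all tested genes, and 30 of the 47 genes had both zdna4 CL libraries below both zdna3 CL libraries, against 26.1% of all tested genes. PES1 had 154 and 174 CPM in zdna4 CL, against 411 and 414 CPM in zdna3 CL, and fell by 1.28 ± 0.24 on the log2 scale (SE; limma adjusted p 0.000112). NOLC1, a chaperone of snoRNPs, had 234 and 255 CPM in zdna4 CL, against 464 and 559.6 CPM in zdna3 CL, and fell by 1.03 ± 0.24 on the log2 scale (SE; limma adjusted p 0.00285). In both genes the groups were separate. The other 6 were DDX21 (-0.85), NCL (-0.58), RRP12 (-1.25), WDR43 (-0.78), EBNA1BP2 (-1.02) and DDX18 (-1.02). This comparison and the one with zdna2 CL share the zdna4 CL libraries. NPM1 did not pass here: it had 1504 and 1460.1 CPM in zdna4 CL, against 1259.6 and 1448 CPM in zdna3 CL, and its change was 0.13. The count became 2 without zdna4 CL replicate 1 and 1 without replicate 2. On the authors' deposited scale, where the median of all genes moved to 1.26, the listed genes' median became 0.69, -0.57 relative to all genes.

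Against zdna1 CL no listed gene passed with limma, edgeR or DESeq2, which called 2.2%, 2.27% and 0.561% of all tested genes; 7 listed genes had an unadjusted p under 0.05, against 13.3% of all tested genes. The median change was -0.13. The smallest p belonged to PES1, with 154 and 174 CPM in zdna4 CL, against 265 and 247 CPM in zdna1 CL and a change of -0.62 (limma adjusted p 0.057). DDX21 had 544 and 455 CPM in zdna4 CL, against 615 and 697 CPM in zdna1 CL and a change of -0.39, NOC3L a change of -1.14 and NOC2L a change of -0.64, none past the threshold. The NOC3L change again rests in part on zdna4 CL replicate 1, with 5 reads. Replicate 2 had 71.4 CPM, against 76.8 and 108 CPM in zdna1 CL.

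The promoters of these genes were read for the E-box of MYC, since the title names MYC and 17 listed genes passed as lower in one comparison. RefSeq promoter windows (GRCh38.p14, 250 bases before to 50 after the start) were available for 41 of the 50 names. CACGTG, which reads the same on both strands, was present in a window of 18 of the 41 genes, or 43.9%, against 13.9% of the 3812 tested genes with a window and 8.77% of all 27305 genes with one. In 16 of the 18 genes a match began within 50 bases of the start. Among listed genes with a window, 9 of the 15 that passed as lower in zdna4 CL than in zdna2 CL held a match. So did 9 of the other 26. Those 26 are not genes without a fall, since 44 of the 47 tested genes had a change below 0 in that comparison. They also include PPAN and RRN3, which were not tested and held no match. Whether the shares differ was not tested. A match describes letters in a window and not binding. The genes without a window were NOP58, NOLC1, BOP1, RRP12, RRS1, RRP1B, DDX18 and TCOF1, besides MKI67IP. The 6 windows that follow are shown to let the box be seen in its place, 4 with a match beside the start and those of NCL and NPM1, which hold none; capitals mark CACGTG and each runs 5′ to 3′ on the gene's strand. Where a gene has more than 1 window, as DDX21, GNL3 and NPM1 do, a window with a match is shown if there is one.
DDX21: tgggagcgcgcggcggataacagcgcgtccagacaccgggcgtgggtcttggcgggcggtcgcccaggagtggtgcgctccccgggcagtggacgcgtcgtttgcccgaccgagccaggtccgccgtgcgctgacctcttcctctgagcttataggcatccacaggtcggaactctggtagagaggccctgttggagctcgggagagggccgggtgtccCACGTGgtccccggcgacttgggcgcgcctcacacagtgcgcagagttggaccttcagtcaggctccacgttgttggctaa
PES1: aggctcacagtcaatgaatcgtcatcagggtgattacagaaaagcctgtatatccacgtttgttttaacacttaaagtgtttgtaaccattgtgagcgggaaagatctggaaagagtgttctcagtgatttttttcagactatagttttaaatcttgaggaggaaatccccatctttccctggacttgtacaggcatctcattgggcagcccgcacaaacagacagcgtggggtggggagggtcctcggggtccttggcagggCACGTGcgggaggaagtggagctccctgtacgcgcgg
WDR43: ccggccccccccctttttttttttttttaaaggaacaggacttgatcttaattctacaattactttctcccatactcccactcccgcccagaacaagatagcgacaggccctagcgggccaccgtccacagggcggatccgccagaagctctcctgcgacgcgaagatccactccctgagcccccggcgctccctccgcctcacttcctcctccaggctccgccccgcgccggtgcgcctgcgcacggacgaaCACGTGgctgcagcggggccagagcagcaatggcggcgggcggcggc
GNL3: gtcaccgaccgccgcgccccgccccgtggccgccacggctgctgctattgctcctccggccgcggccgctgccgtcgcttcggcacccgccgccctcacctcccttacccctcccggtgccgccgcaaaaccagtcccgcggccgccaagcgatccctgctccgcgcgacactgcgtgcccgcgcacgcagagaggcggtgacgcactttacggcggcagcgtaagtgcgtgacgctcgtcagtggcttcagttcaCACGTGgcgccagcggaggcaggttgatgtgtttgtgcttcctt
NCL: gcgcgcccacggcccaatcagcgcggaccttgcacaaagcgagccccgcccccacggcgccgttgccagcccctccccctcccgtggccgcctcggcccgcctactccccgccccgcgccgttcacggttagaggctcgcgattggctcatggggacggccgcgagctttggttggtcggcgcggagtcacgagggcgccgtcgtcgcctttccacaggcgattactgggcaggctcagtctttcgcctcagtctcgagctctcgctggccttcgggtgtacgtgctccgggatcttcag
NPM1: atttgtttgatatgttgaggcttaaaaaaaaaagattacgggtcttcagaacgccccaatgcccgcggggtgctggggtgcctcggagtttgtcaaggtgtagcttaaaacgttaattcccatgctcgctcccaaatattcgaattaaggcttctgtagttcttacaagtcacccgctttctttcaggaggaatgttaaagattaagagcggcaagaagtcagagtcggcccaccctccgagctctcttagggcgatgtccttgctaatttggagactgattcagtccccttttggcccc
In these windows the first base of the box lay 31 bases before the start in DDX21, and 13, 3 and 6 bases after it in PES1, WDR43 and GNL3. The windows are chr10:68956397-68956696 (+) for DDX21, chr22:30591861-30592160 (-) for PES1, chr2:28894417-28894716 (+) for WDR43, chr3:52685782-52686081 (+) for GNL3, chr2:231464435-231464734 (-) for NCL and chr5:171386866-171387165 (+) for NPM1. In the hg19 coordinates of the deposited tables, DDX21 spans chr10:70715926-70744825 (+), PES1 chr22:30972612-31003000 (-), NCL chr2:232318242-232329195 (-) and NPM1 chr5:170814120-170837888 (+), and the reads were counted over all annotated exons of each gene.

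The numbers were also compared over both arms. In zdna2 against zdna1, 9 of 47 listed genes passed and all were higher in zdna2, where 2.5% of all tested genes passed and 0.799% as higher. NCL had 2045 and 1906 CPM in zdna2 CL and 2012 and 1803 CPM in zdna2 CC, against 1236 and 1578 CPM in zdna1 CL and 1738 and 1483 CPM in zdna1 CC. All 4 zdna2 libraries lay above all 4 zdna1 libraries, and the gene rose by 0.37 ± 0.08 on the log2 scale (SE; limma adjusted p 0.00119). NPM1 had 1913 and 1958 CPM in zdna2 CL and 1923 and 1711 CPM in zdna2 CC, against 1278 and 1458 CPM in zdna1 CL and 1685 and 1563 CPM in zdna1 CC, and rose by 0.33 ± 0.07 on the log2 scale (SE; limma adjusted p 0.0052). DDX21 had 928 and 1030.5 CPM in zdna2 CL and 949 and 901 CPM in zdna2 CC, against 615 and 697 CPM in zdna1 CL and 771 and 736 CPM in zdna1 CC, and rose by 0.43 ± 0.10 on the log2 scale (SE; limma adjusted p 0.00791). Again no zdna1 library reached a zdna2 library in either gene. The others were RRP12 (0.69), GNL3 (0.69), WDR3 (0.62), NOP56 (0.64), WDR43 (0.44) and UTP25 (0.84), on the log2 scale.

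In zdna3 against zdna1, 4 listed genes passed, all higher in zdna3, where 4.49% of all tested genes passed and 2.22% as higher. NOLC1 had 464 and 559.6 CPM in zdna3 CL and 357 and 452 CPM in zdna3 CC, against 189 and 196 CPM in zdna1 CL and 213 and 382 CPM in zdna1 CC, and rose by 0.92 ± 0.21 on the log2 scale (SE; limma adjusted p 0.00268). One zdna1 CC library overlapped the zdna3 range. UBTF, with 305 and 341 CPM in zdna3 CL and 428 and 333 CPM in zdna3 CC against 182 and 215 CPM in zdna1 CL and 213 and 217 CPM in zdna1 CC, rose by 0.73 ± 0.22 on the log2 scale (SE; limma adjusted p 0.035) and its zdna3 libraries all lay above its zdna1 libraries. NCL (0.42) and DDX18 (0.78) also rose. No other gene of RNA polymerase I transcription passed with limma in a comparison between groups over both arms or of zdna4 CL. In the CL arm alone, taken after the data were seen, LYAR rose in zdna2 over zdna1 (1.35) and MYBBP1A rose in zdna3 over zdna2 (1.35), both on the log2 scale, where 3.56% of all tested genes passed in zdna3 over zdna2. On the deposited scale zdna3 values moved as a whole, to a median of -1.48 over all genes, and the 4 named changes turned negative; the listed genes' median of -1.23 was then 0.25 above that of all genes.

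The count in zdna2 against zdna1 rested on several libraries and on the fit. With equal weights for all libraries it was 0, with 17 of all tested genes passing. On the deposited scale it was also 0, without the share of all tested genes beside it. With DESeq2 it was 3, where 0.864% of all tested genes passed. With 1 zdna1 library left out it was 0 for CL replicate 1 and 3 for each of the other 3. With 1 zdna2 library left out it was 1 for CC replicate 1, 4 for CC replicate 2, 3 for CL replicate 1 and 2 for CL replicate 2. Leaving out either zdna3 CL library, which changes only the scaling and the shared spread, gave 5. The count in zdna3 against zdna1 fell without zdna1 CL replicate 2 or with 1 zdna1 CC replicate left out. It rose with 1 zdna3 CC replicate left out. The share of all tested genes in those fits was not set beside it. With each library left out in turn the median change kept its sign, between 0.24 and 0.34 for zdna2 and between 0.23 and 0.34 for zdna3.

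Each arm was also taken alone, a choice made after the data were seen. In the CL arm 14 listed genes passed as higher in zdna2 than in zdna1, against 1.92% of all tested genes, and the median change was 0.48. In the CC arm none passed with limma in that comparison, where 0.194% of all tested genes passed, 1 listed gene had an unadjusted p under 0.05 (6.48% of all tested genes) and the median was 0.12. For zdna3 against zdna1, 3 listed genes passed in the CL arm, against 1.66% of all tested genes as higher, with a median of 0.49, and 0 in the CC arm, where 1.23% of all tested genes passed, 5 listed genes had an unadjusted p under 0.05 (11.9% of all tested genes) and the median was 0.12. DDX18 had 371 and 292 CPM in zdna3 CL and 328 and 235 CPM in zdna2 CL, against 139.7 and 114 CPM in zdna1 CL. The CC libraries of the same gene held 303 and 262 CPM in zdna3, 268 and 222 CPM in zdna2 and 248 and 222 CPM in zdna1, where the zdna2 range overlapped both others. The difference between the arms was tested as a single contrast for each pair, also chosen after the data were seen. For zdna2 against zdna1 no listed gene passed with limma, edgeR or DESeq2, which called 0.302%, 0.389% and 0.0648% of all tested genes. There 9 listed genes had an unadjusted limma p under 0.05, as had 8.7% of all tested genes, and FTSJ3 had the smallest adjusted p, 0.0763. For zdna3 against zdna1 none passed either, where the same tools called 0.151%, 0.367% and 0.259%, and 5 listed genes had an unadjusted limma p under 0.05, as had 7.17% of all tested genes. The smallest adjusted p there was that of WDR43, 0.549. On the deposited scale 6 passed in that contrast, where 4.17% of all tested genes passed. The listed genes' median was 0.36 in the main fit, against 0.09 for all tested genes. It was 0.21 (against 0.05) and 0.24 (against 0.02) with the first and the second zdna3 CC replicate left out. In the joint test, over all 16 libraries, of whether CL over CC differed among the 4 numbers, no listed gene passed with limma, edgeR or DESeq2, which called 0.864%, 1.23% and 0.583% of all tested genes. At an unadjusted p under 0.05 there were 7 listed genes and 10.4% of all tested genes, and FTSJ3 had the smallest adjusted p, 0.0851; NOP58 (0.215), WDR43 (0.319) and HEATR1 (0.322) followed. Some listed genes passed the joint test with 1 zdna4 CC or 1 zdna3 CC replicate left out, in fits that leave a lone library in that group. The share of all tested genes in those fits was not set beside them.

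**Figure D3:**
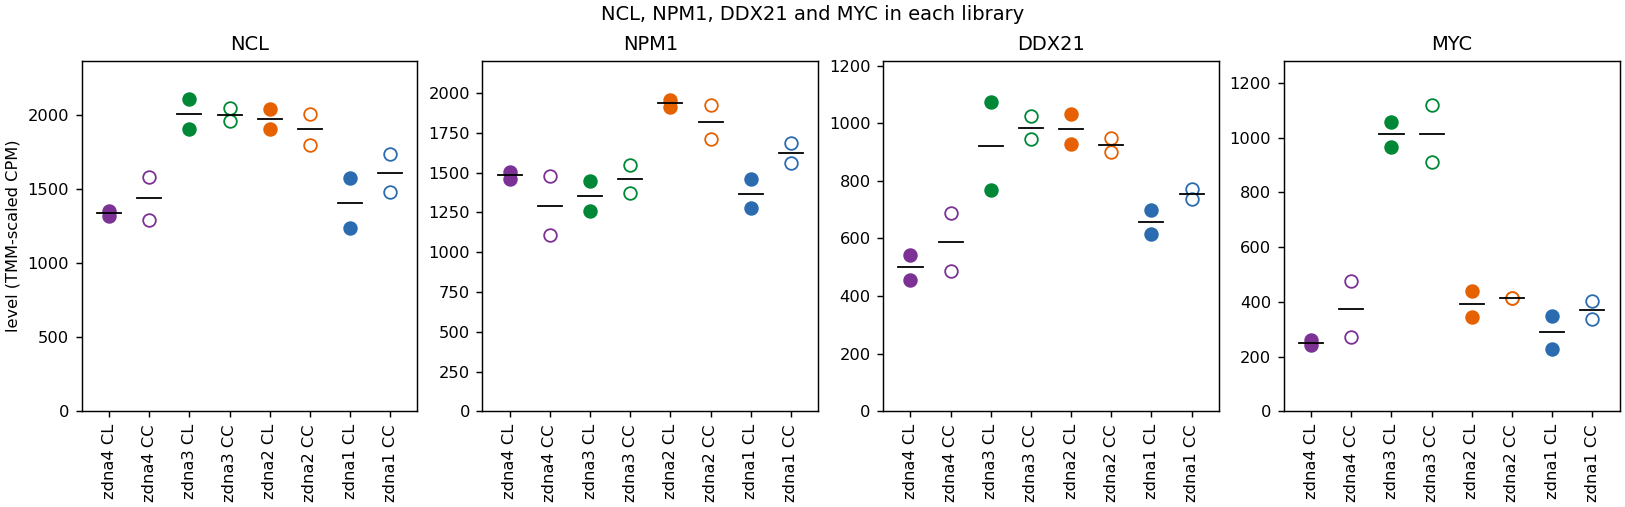
Level of NCL, NPM1, DDX21 and MYC in each library, in TMM-scaled CPM; points are libraries (filled CL, open CC) and bars the mean of 2. MYC lies between 909 and 1119 CPM in the zdna3 libraries and between 228 and 475 CPM in all others, while NCL and DDX21 are at similar levels in zdna3 and zdna2.

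Between zdna3 and zdna2 only NPM1 passed among the listed genes, lower in zdna3, where 6% of all tested genes passed and 3.2% as lower. NPM1 had 1259.6 and 1448 CPM in zdna3 CL and 1373 and 1548 CPM in zdna3 CC, against 1913 and 1958 CPM in zdna2 CL and 1923 and 1711 CPM in zdna2 CC. No zdna3 library reached a zdna2 library, and the gene fell by 0.41 ± 0.10 on the log2 scale (SE; limma adjusted p 0.00566). Not past the threshold were NOLC1 (0.61), UBTF (0.60) and WDR75 (-0.95); edgeR called 3 listed genes, NOLC1 and UBTF among them, and 6.54% of all tested genes. The listed genes' median was -0.01. On the deposited scale all 47 passed, but the share of all tested genes that passed was not set beside this count. It cannot be read as particular to the listed genes. On that scale the median of all genes was -1.36 and the changes of NOLC1 and UBTF turned to -0.87 each. Relative to that median the listed genes' median was -0.10. Leaving out 1 library raised the count to 5 for either zdna3 CC replicate, to 3 for the first zdna3 CL replicate and to 2 for the first CC replicate of zdna1, zdna2 or zdna4.

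MYC itself was highest in zdna3 on the TMM-scaled CPM scale. In zdna4 it had 243 and 259 CPM in CL and 269.8 and 475 CPM in CC. It had 968 and 1058 CPM in zdna3 CL and 909 and 1119 CPM in zdna3 CC, 439.8 and 343 CPM in zdna2 CL and 414 and 413 CPM in zdna2 CC, and 349 and 228 CPM in zdna1 CL and 337 and 405 CPM in zdna1 CC. On that scale every zdna3 library lay above every other library. In zdna3 over zdna2 MYC rose by 1.31 ± 0.17 on the log2 scale (SE; limma adjusted p 1.35e-07), and the listed genes' median in the same comparison was -0.01. On the deposited scale, where the median of all genes was -1.36, the change of MYC was -0.21 and did not pass. Its deposited signal was 13.6 and 14.8 in zdna3 CL and 7.31 and 8.71 in zdna3 CC, against 13.9 and 10.5 in zdna2 CL and 12.7 and 12.4 in zdna2 CC. In zdna2 over zdna1 its change was 0.30 and did not pass, while 9 listed genes did. In zdna4 CL MYC fell against both zdna2 CL (-0.61) and zdna3 CL (-1.97), on the log2 scale. The fall against zdna2 CL did not pass without zdna2 CL replicate 1 (-0.44), zdna4 CL replicate 1 (-0.55) or zdna4 CL replicate 2 (-0.64), nor on the deposited scale (-0.38). No relation between MYC and the listed genes was tested, and whether the MYC reads come from the endogenous gene is not given in the sources used here.

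**Figure D4:**
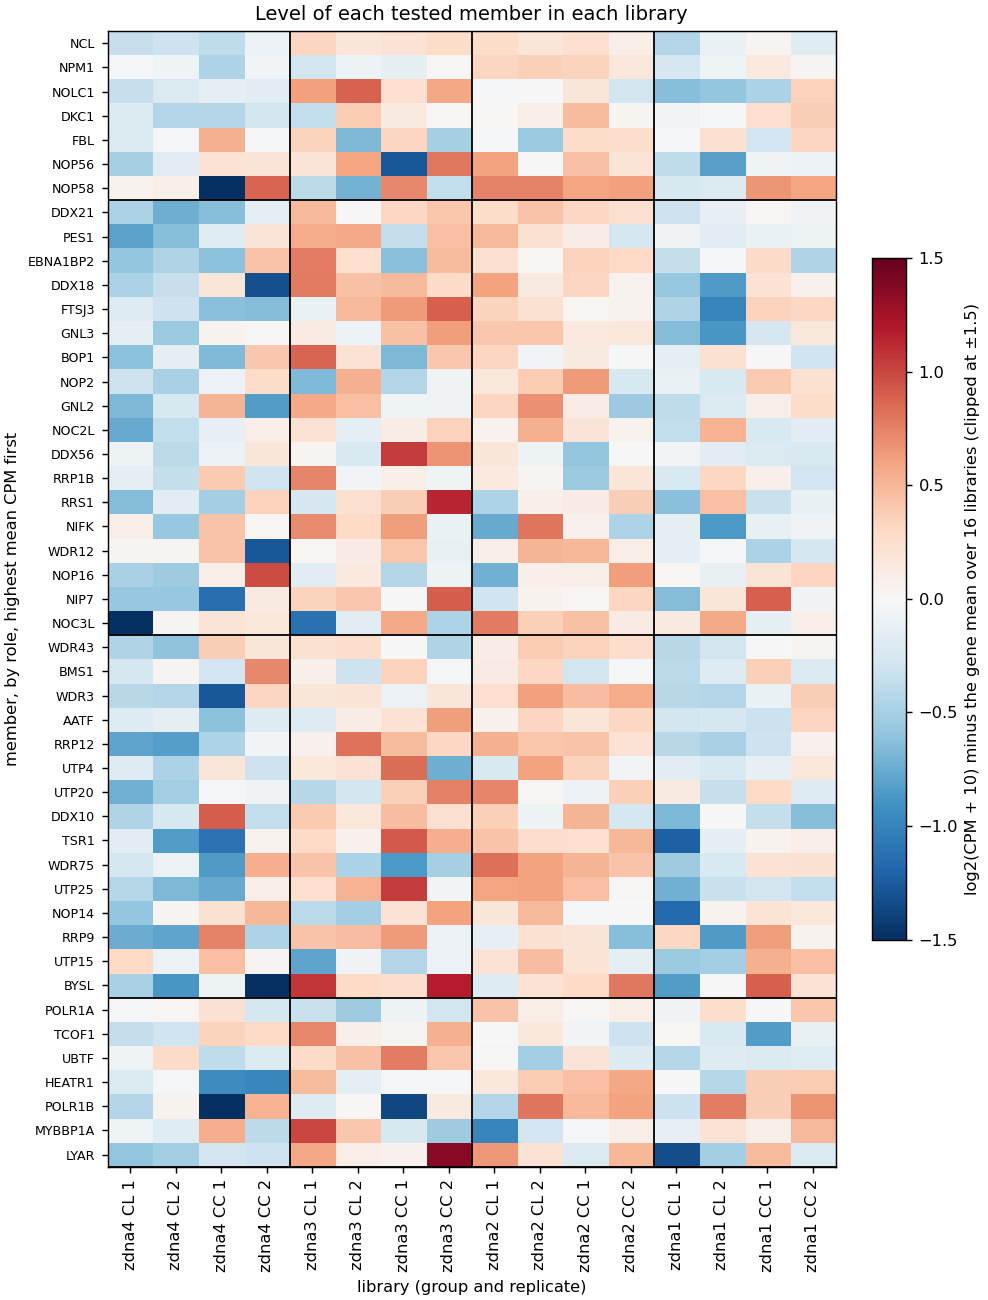
Level of each of the 47 tested genes in each of the 16 libraries, as log2(CPM + 10) minus the gene's mean over all libraries, by role (horizontal lines) and number (vertical lines), with zdna4 at the left and CL left of CC. Red is above and blue below the gene's mean, clipped at 1.5. The zdna4 CL and zdna1 CL columns hold the lowest group means of 19 and 11 genes, a count not made over all tested genes.

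Within a number, CL and CC were compared directly. In zdna1, 1 listed gene passed, FTSJ3, which encodes an rRNA methyltransferase of 60S assembly, where 0.756% of all tested genes passed and 0.259% as lower. FTSJ3 had 154 and 101 CPM in zdna1 CL, against 275 and 268 CPM in zdna1 CC. The arms were separate, and the gene fell by 1.06 ± 0.24 on the log2 scale (SE; limma adjusted p 0.00947). It no longer passed without zdna1 CL replicate 2 or without either zdna1 CC replicate, nor with DESeq2, which called 0.302% of all tested genes; edgeR called the same gene and 0.993% of all tested genes. The next genes did not pass: DDX18 had 139.7 and 114 CPM in zdna1 CL, against 248 and 222 CPM in zdna1 CC (-0.85, limma adjusted p 0.0997), GNL3 had a change of -0.72 and UTP15, a t-UTP protein, of -1.03. The change was below 0 for 37 of the 47 genes, with a median of -0.30 against -0.00 for all tested genes. Both CL libraries lay below both CC libraries in 24 listed genes, a separation found in 20.3% of all tested genes, and 13 had an unadjusted p under 0.05, against 10.6% of all tested genes.

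No listed gene passed in the other 3 numbers, nor in CL over CC averaged over the 4 numbers, with limma, edgeR or DESeq2. In zdna4 limma and edgeR each called 1.17% of all tested genes and DESeq2 0.518%. There 4 listed genes had an unadjusted p under 0.05, against 10.4% of all tested genes, with a median change of -0.26 against 0.08 for all tested genes. WDR43 had 285 and 255 CPM in zdna4 CL, against 513 and 449 CPM in zdna4 CC, separate between the arms, and its change was -0.81 (limma adjusted p 0.195). NOP58 had 131 and 134 CPM in zdna4 CL, against 0 and 238 CPM in zdna4 CC, so its change of 1.52 rested on the CC library with no read and became -0.77 without it. HEATR1 changed by 0.84 and PES1 by -0.73, neither past the threshold. With 1 zdna4 CC replicate left out some listed genes passed, in fits that leave a lone library in that group. The share of all tested genes in those fits was not set beside them. With each library left out in turn, the listed genes' median stayed between -0.39 and -0.12.

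In zdna3, each tool called 0.0864% of all tested genes, and 2 listed genes had an unadjusted p under 0.05, against 6.56% of all tested genes; the median was -0.07. MYBBP1A, a nucleolar MYB-binding protein, had 225 and 146 CPM in zdna3 CL, against 89.2 and 71.4 CPM in zdna3 CC and a change of 1.09. UTP20 changed by -0.92, DDX56 by -0.95 and WDR43 by 0.47. One listed gene passed without zdna3 CC replicate 2. In zdna2, limma called 0.173% of all tested genes, edgeR 0.194% and DESeq2 0.0648%, 3 listed genes had an unadjusted p under 0.05, against 6.58% of all tested genes, and the median was 0.08. The smallest p values there belonged to GNL2 (0.72), FBL (-0.55), MYBBP1A (-0.68) and PES1 (0.43). Averaged over the numbers, limma called 0.432% of all tested genes, edgeR 0.475% and DESeq2 0.302%, and no listed gene reached an unadjusted p under 0.05, against 9.28% of all tested genes; the smallest p values were those of GNL3 (-0.34), UTP20 (-0.36), NOP14 (-0.47) and NOP16 (-0.45).

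**Figure D5:**
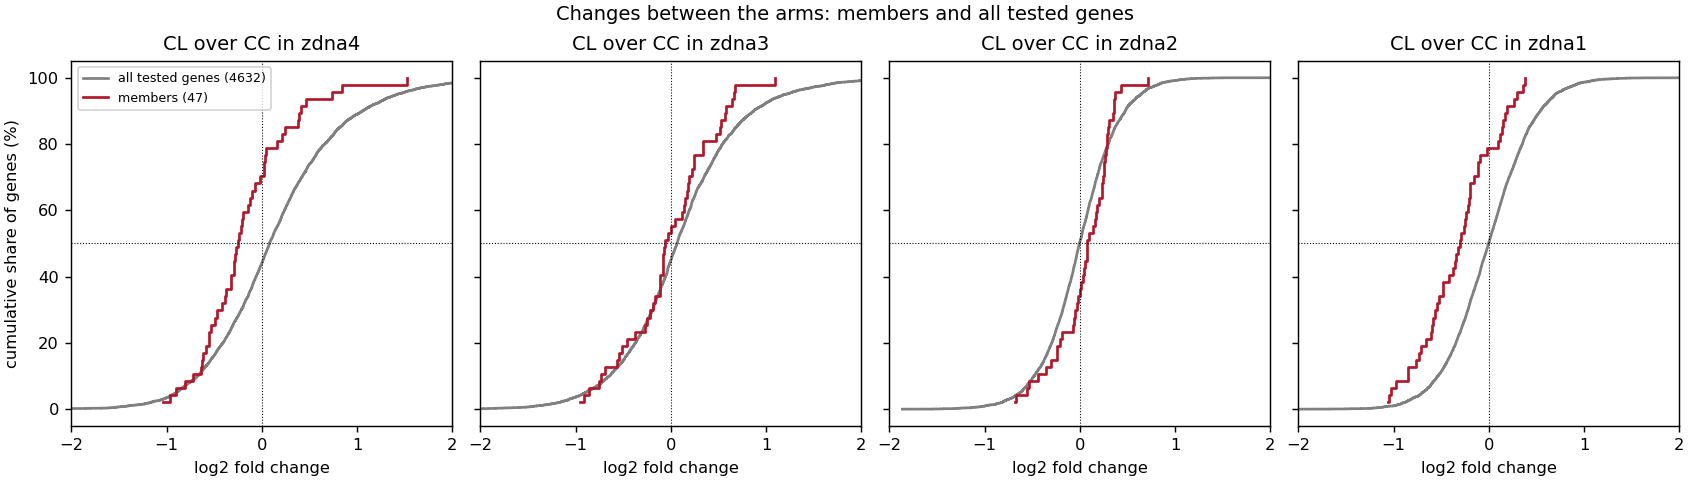
Cumulative share of genes by log2 fold change of CL over CC in zdna4, zdna3, zdna2 and zdna1, for the 47 tested listed genes (red) and all 4632 tested genes (grey; values beyond 2 in either direction are off the axis). The listed genes' medians are -0.26, -0.07, 0.08 and -0.30 from left to right, and those of all genes 0.08, 0.06, -0.01 and -0.00.

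Of other genes of the pathway, 85 were tested in 5 further lists. In zdna4 CL over zdna2 CL, 8 of the 85 (9.41%) passed, all lower, against 10.6% of all tested genes and 4.23% as lower, and their median was -0.46. The change was below 0 for 73 of the 85, against 50.2% of all tested genes. Both zdna4 CL libraries lay below both zdna2 CL libraries for 53 of the 85, against 26% of all tested genes. Of 26 other small subunit factors 4 passed and 25 had a change below 0. Among the 4 were PNO1, a late 40S assembly factor (-1.25), the helicase DDX47 (-0.72) and NOL11 of the t-UTP complex (-0.80). Of 33 other large subunit factors 4 passed and 29 had a change below 0. Among the 4 were PA2G4, which binds 60S particles (-0.84), RSL1D1 (-0.59) and LSG1, a GTPase of 60S maturation (-0.83). None of 9 other RNA polymerase I subunits and factors passed there with limma. In zdna4 CL over zdna3 CL, 3 of the 85 (3.53%) passed, against 6.71% of all tested genes and 3.35% as lower. These fell: DDX47 (-0.99), RSL1D1 (-0.63) and CAVIN1 (-1.32). CAVIN1 is listed as a release factor of RNA polymerase I transcripts and is also a coat protein of caveolae at the cell surface. In zdna2 over zdna1 3 of the 85 passed (3.53%, against 2.5% of all tested genes), of which URB1 (0.74) and RSL1D1 (0.63) rose and CAVIN1 fell (-0.38). In zdna3 over zdna1 2 passed (2.35%, against 4.49%), where URB1 (0.88) and CAVIN1 (0.93) rose. In zdna3 over zdna2 3 passed (3.53%, against 6%): CAVIN1 rose (1.30) while MPHOSPH10 (-1.70) and ZNHIT6 (-1.20) fell. Within a number, none of the 85 passed between arms with limma, edgeR or DESeq2; 15, 4, 3 and 7 had an unadjusted limma p under 0.05 in zdna1, zdna2, zdna3 and zdna4, against 10.6%, 6.58%, 6.56% and 10.4% of all tested genes.

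Of the listed genes with a row, 2 were too low to test. PPAN, homologous to the yeast 60S factor Ssf1, had 11 reads in all 16 libraries, and 56.2% of its exon bases are also annotated to another gene. RRN3, the initiation factor TIF-IA of RNA polymerase I, had 77 reads and averaged 44.5 CPM. Exon bases shared with another gene also made up 27% in TSR1, 24.8% in HEATR1 and between 10.3% and 14.2% in NIFK, NOC2L, NOP16 and NOP14, and without strand such reads cannot be told apart. NPM1, BMS1 and RRN3 have near-identical pseudogene copies, so that their reads are uncertain where alignments were kept only if unique. Between the first and last exon base of 8 listed genes lie 26 small nucleolar RNAs with a single locus. SNORD86 overlaps annotated exon bases of its host NOP56, and SNORA36A and SNORA56 overlap those of DKC1. Of the 26, 9 had no read, all together had 112 reads, and none could be tested.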

How the data were processed

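The authors' deposited tables hold 1 signal value per gene and library, which per the file headers came from featureCounts 2.0.1 on paired reads over exons, summed by gene, with no strand option. The submitters' processing notes name Trim Galore 0.6.6, STAR and bedtools 2.29.2 with hg19 and dm6, and the header paths name uniquely aligned reads and a spike-in. Within a library every signal value was a whole multiple of 1 constant to within 0.1 read for 99.99% of values above 0 in the library with the lowest share, so whole reads were recovered by division, and the authors' constants were used only as an alternative. Reads were analysed with limma 3.58.1 as log2(CPM + 10), with TMM scaling, genes at a mean of at least 50 CPM, 8 group means fitted over 16 libraries, array weights by group and a trended variance prior. The count tests of edgeR 4.0.16 and DESeq2 1.42.0 were alternatives. The fit was tested on simulated data.

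The listed genes and all lists were chosen with earlier results of these data known. Named in each comparison were genes that passed (up to 8 by smallest p), or else the 4 smallest p, 13 genes always named for their level, genes not tested, up to 3 that passed from each further list, and MYC. Replicate numbers were not used to pair libraries in the main fit. Over 919 genes, the 28 correlations of deviations between groups ran from -0.07 to 0.06. Where replicates differ little beyond sampling noise, such correlations cannot decide whether replicate numbers pair libraries. Human-gene reads of replicates agreed within sampling noise in zdna3 CL, zdna3 CC and zdna2 CC (chi-square p 0.0705, 0.674 and 0.383). Chi-square per degree of freedom was 1.05, 0.98 and 1.01 there. In the other groups it was 1.04 in zdna4 CL and zdna2 CL, 1.07 in zdna1 CL and zdna1 CC, and 1.25 in zdna4 CC. Contig reads per human-gene read differed in zdna3 CL, zdna3 CC and zdna2 CC (chi-square p 5.33e-06, 0.00181 and 5.07e-14), and each pair was kept as 2 libraries.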

Additional observations from a re-analysis of the deposited data

Results flagged for a closer look

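The difference in summed level of the listed genes between CL and CC had opposite signs in different numbers. Over all 49 genes with a row, both zdna2 CL libraries lay above both zdna2 CC libraries, with a mean difference of 643 CPM. The sums were 13737.5 and 13814 CPM in zdna2 CL and 13637.5 and 12628 CPM in zdna2 CC. Both CL libraries lay below both CC libraries in zdna1, by -2163 CPM, and in zdna4, by -1469 CPM. Taken singly, 16.7% of all tested genes were separate as higher in zdna2, and 20.3% as lower in zdna1 and in zdna4. Without NCL and NPM1 the differences were 456 CPM in zdna2, -1704 CPM in zdna1 and -1556 CPM in zdna4. The 60S assembly genes differed by 359 CPM in zdna2, -508 CPM in zdna1 and -673 CPM in zdna4. The 40S genes differed by 225 CPM in zdna2, -674 CPM in zdna1, -237 CPM in zdna3 and -672 CPM in zdna4. These differences between numbers of the summed level were not tested. The zdna4 CC sums rest on 367 and 438 reads.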

How the results depend on the processing

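Groups of 2 libraries and 39335 to 310187 reads each limit what could pass: genes near 50 CPM rest on a few reads in the shallowest libraries. Leaving out 1 library assumes that the lone library of that group varies like the others. The listed genes' median relative to all tested genes kept its sign under the alternatives run, except in zdna4 CL over CC without a filter (0.07), in zdna4 CL over zdna1 CL without zdna1 CL replicate 2 (0.07) and, from 0.03, in zdna3 over zdna2 under 5 alternatives (the lowest -0.20). By edgeR, 472 genes of all tested passed in zdna4 CL over zdna2 CL, against 491 by limma.

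The number of listed genes that passed moved as follows. With the deposited scale it was 0 in zdna1 CL over CC, 15 in zdna3, 1 in zdna4, 3 averaged over the numbers, 8 for differences between numbers, 0 in zdna2 over zdna1, 45 in zdna3 over zdna1, 47 in zdna3 over zdna2, 11 in zdna4 CL over zdna2 CL and 27 in zdna4 CL over zdna3 CL. On that scale the median of all genes moved to 0.72 in zdna3 CL over CC, -1.48 in zdna3 over zdna1, -1.36 in zdna3 over zdna2, 0.22 in zdna4 CL over zdna2 CL and 1.26 in zdna4 CL over zdna3 CL. Relative to it the listed genes' medians were -0.03, 0.25, -0.10, -0.53 and -0.57. With equal weights for all libraries it was 0 in zdna1 CL over CC, 1 in zdna4 CL over CC, 0 in zdna2 over zdna1 and 4 in zdna4 CL over zdna2 CL. With DESeq2 it was 0 in zdna1 CL over CC, 3 in zdna2 over zdna1, 2 in zdna3 over zdna1 and 7 in zdna4 CL over zdna2 CL, and with edgeR 8 in zdna3 over zdna1 and 3 in zdna3 over zdna2. Without a filter it was 0 in zdna1 CL over CC, 2 in zdna2 over zdna1, 0 in zdna3 over zdna1, 2 in zdna3 over zdna2, 6 in zdna4 CL over zdna2 CL and 1 in zdna4 CL over zdna3 CL, with more genes tested. With a filter of 100 CPM it was 1 for differences between numbers, 7 in zdna3 over zdna1, 3 in zdna3 over zdna2 and 1 in zdna4 CL over zdna1 CL. In zdna3 over zdna2 it was 3 with a pseudocount of 50, 2 with library totals, 4 with only the libraries compared and 2 with both zdna4 CC libraries left out, and in zdna3 over zdna1 it was 2 with a pseudocount of 2. In the CC arm alone it was 0 in each of zdna2 over zdna1, zdna3 over zdna1 and zdna3 over zdna2, and in the CL arm alone 14 in zdna2 over zdna1 and 2 in zdna3 over zdna2. Leaving out each library in turn gave 0 to 1 in zdna1 CL over CC, 0 to 1 in zdna3, 0 to 9 in zdna4, 0 to 7 for differences between numbers, 0 to 9 in zdna2 over zdna1, 2 to 14 in zdna3 over zdna1, 1 to 5 in zdna3 over zdna2, 3 to 18 in zdna4 CL over zdna2 CL and 1 to 12 in zdna4 CL over zdna3 CL. For CL over CC in zdna2 minus zdna1 it was 0 in every alternative but a filter of 100 CPM (1, where 0.778% of all tested genes passed). In zdna3 minus zdna1 it was 6 on the deposited scale, where 4.17% of all tested genes passed. The cause was not tested where the alternative did not drop genes or samples. Except where a share is given, the counts under all these alternatives stand without the share of all tested genes that passed in the same fit. This holds for the deposited scale, equal weights, the filters and pseudocounts, and for fits with 1 library left out. They cannot be read as particular to the listed genes.

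With the replicate block, the count in zdna4 CL over zdna2 CL was 17, in zdna4 CL over zdna3 CL 8 and in zdna2 over zdna1 9, and the block changed no other call.

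Values of named genes that turned round did so on the deposited scale, with 1 exception: NOP58 in zdna4 CL over CC became -0.77 without zdna4 CC replicate 1, which had no NOP58 read, and ranged up to 3.84 with another library left out. On the deposited scale zdna3 over zdna1 became -0.68 for NOLC1, -1.23 for NCL, -0.85 for UBTF and -0.78 for DDX18. There zdna3 over zdna2 became -0.87 for NOLC1, -0.87 for UBTF and -0.21 for MYC. There zdna4 CL over zdna3 CL became 0.057 for PES1, 0.52 for DDX21, 0.80 for NCL, 0.063 for RRP12, 0.32 for NOLC1, 0.57 for WDR43, 0.31 for EBNA1BP2 and 0.31 for DDX18.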
